A study of Homo sapiens with 6 samples.

Results

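The respiratory chain genes described here were the 13 protein-coding genes of the mitochondrial DNA and 90 nuclear genes named as subunits of the 5 complexes, together 103 of the 19973 genes in the deposited table. The mitochondrial genes were taken by their chromosome (MT) and the nuclear genes by their names, which begin with NDUF, SDH, UQCR, CYC1, COX or ATP5, with assembly factors left out. The rule itself uses no measured value, but it was set with earlier results of these data known. The names also brought in the readthrough genes NDUFC2-KCTD14 and ATP5MF-PTCD1, neither of which had enough reads for a test, and the supercomplex factor COX7A2L. Poly(A)-selected, stranded mRNA libraries had been sequenced from OVCAR3, an established ovarian carcinoma cell line, after transfection with shNUF2, a short hairpin RNA against NUF2 (3 libraries, labelled NUF2 knockdown), or with the control hairpin shNC (3 libraries, labelled WT). NUF2 is a subunit of the NDC80 complex, which attaches kinetochores to microtubules at mitosis. The question was whether subunits encoded by the 2 genomes differed in their change between shNUF2 and shNC, complex by complex.

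Complex I oxidises NADH, complex II oxidises succinate, complex III passes electrons from ubiquinol to cytochrome c, complex IV reduces oxygen, and complex V makes ATP from the proton gradient. Complexes I, III, IV and V are assembled from subunits of both genomes, while complex II is wholly nuclear. The mitochondrial genes are transcribed by a dedicated polymerase inside the organelle as long transcripts that are then cut into single mRNAs, whereas each nuclear gene has a promoter of its own.

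The libraries held 13057534 to 16995452 counted reads. Reads of NUF2 itself numbered 903, 1096 and 1092 under shNC against 281, 290 and 384 under shNUF2, a log2 fold change of -1.51 (SE 0.08, adjusted p = 2.17e-15). Of the 12 ovarian carcinoma line markers listed, 9 passed the filter on low counts, 4 of them higher and 4 lower with shNUF2. MUC16, MSLN, FOLR1, PAX8, KRT7, KRT8 and KRT18 were present in every library. Of the other 5, EPCAM had 44 to 91 reads and CDH1 9 to 33 reads per library, while WT1, SOX17 and KRT19 had at most 14 reads in any. The summed level of the list was 6786 to 7289 CPM (read counts scaled to library size) with shNC and 6094 to 6339 CPM with shNUF2. The 12 markers of leukocytes, endothelium and fibroblasts summed to 87.2 to 93.6 CPM with shNC and 75.8 to 83.9 CPM with shNUF2, most of it from COL1A1. PDGFRA had no read in any library, CD3E at most 1 and PTPRC at most 11. Of the 5 that were tested, 3 were higher and 1 was lower with shNUF2, and their part in the results below was not tested. The libraries of a group differed somewhat for short transcripts. With each library set against the mean of the others of its group, the median difference over 140 genes under 1000 bases ran from -0.08 on the log2 scale in shNC replicate 2 to 0.08 in shNC replicate 3, with 0.06 in shNUF2 replicate 2. Of the 94 respiratory chain genes tested, 68 lay above that mean in shNC replicate 3 and 61 in shNUF2 replicate 2, beside 27 to 48 in the other libraries. Values with a library left out are given below for calls that it decided.

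Differences were tested in a single fit over all 12874 genes that passed the filter, and a gene was called where its Benjamini-Hochberg adjusted p was under 0.05. In this comparison 33.8% of all genes tested were called lower and 33.9% were called higher with shNUF2, so a share of calls near these values says nothing particular of a gene group. The median log2 fold change of all genes tested was -0.01. All 13 mitochondrial genes and 81 of the 90 nuclear genes passed the filter. The other 9 had too few reads for a test, namely NDUFC2-KCTD14, NDUFA7, COX4I2, COX6A2, COX7A1, COX8C, ATP5ME, ATP5MF-PTCD1 and ATP5MGL. The labels do not say whether replicates came from separate cultures, so all p-values measure only the spread between these libraries.

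All 13 mitochondrially encoded genes were lower with shNUF2, with a median log2 fold change of -0.54 and a range from -0.84 to -0.27. In 12 of the 13 the highest shNUF2 library was under the lowest shNC library, an order seen in 35.4% of all genes tested, and the reverse order was seen in 35.2%. Together the 13 genes had 504188, 604630 and 645864 reads under shNC against 328825, 343882 and 390060 under shNUF2. As a share of all counted reads this was 3.57%, 3.85% and 3.8% against 2.38%, 2.63% and 2.56%, or 3.74% ± 0.149 against 2.52% ± 0.129 (SD, n = 3), a ratio of 0.675. The groups did not overlap in this share. Measured per length, as a share of all FPKM (read level scaled to gene length and library size), the 13 genes made up 14.5% ± 0.529 with shNC and 9.98% ± 0.476 with shNUF2. A share of a library is relative, and in bulk RNA fewer mitochondrial transcripts per cell cannot be told apart from more RNA of other genes.

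**Figure D1:**
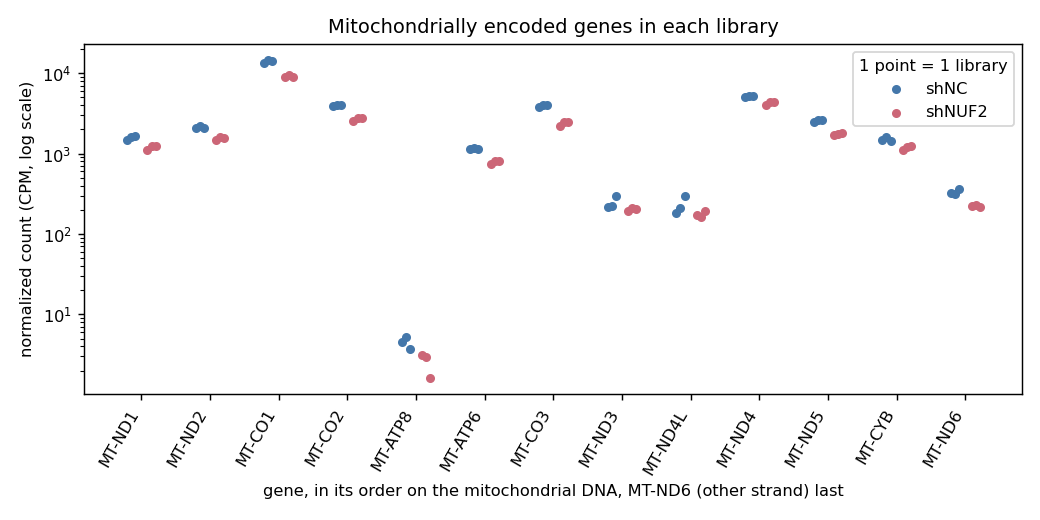
Normalized count (CPM, log scale) of each mitochondrially encoded gene in the 3 shNC and 3 shNUF2 libraries, 1 point per library, with the genes in their order on the mitochondrial DNA and MT-ND6 last. MT-CO1 ran from 13309 to 14619 CPM in shNC and from 8837 to 9616 CPM in shNUF2 libraries, and the groups overlapped only for MT-ND4L.

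The complex IV genes of the mitochondrial DNA encode the catalytic core of cytochrome c oxidase, and all 3 fell. MT-CO3 (chrMT:9207-9990) was measured at 3785, 4023 and 4047 CPM with shNC and at 2233, 2467 and 2489 CPM with shNUF2, a log2 fold change of -0.72 (SE 0.04, adjusted p = 5.36e-14). Every shNUF2 library was far below the shNC libraries, and the mean was 60.6% of the shNC mean. MT-CO1 (chrMT:5904-7445), which binds the haem groups where oxygen is reduced, was at 13309, 14619 and 14329 CPM with shNC and 8837, 9616 and 9009 CPM with shNUF2 (log2 fold change -0.62, SE 0.04, adjusted p = 3.67e-13). MT-CO2 (chrMT:7586-8269), which takes electrons from cytochrome c, went from 3989 ± 76.3 to 2692 ± 112 CPM (log2 fold change -0.57). The median of the 3 was -0.62.

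The 7 complex I genes of the mitochondrial DNA encode membrane-arm subunits that take part in proton pumping, and all were lower, with a median log2 fold change of -0.39. MT-ND4 (chrMT:10760-12137), at 3815 ± 77.2 FPKM with shNC the highest of them per length, was at 5098, 5232 and 5249 CPM with shNC and 4044, 4346 and 4318 CPM with shNUF2 (log2 fold change -0.29, SE 0.04, adjusted p = 1.71e-07). MT-ND5, its neighbour downstream on the same strand, went from 2574 ± 62.3 to 1769 ± 60.4 CPM (log2 fold change -0.54). MT-ND1 and MT-ND2 were lower by values between these, at -0.39 and -0.43. MT-ND6 (chrMT:14149-14673), the only protein gene transcribed from the other strand and one whose mRNA is known to carry little or no poly(A) tail, was at 324, 315 and 361 CPM with shNC and 221, 230 and 218 CPM with shNUF2 (log2 fold change -0.58, SE 0.05). The ratio of MT-ND6 to MT-ND5 reads was 0.129 ± 0.0095 with shNC and 0.126 ± 0.00608 with shNUF2, which differed by less than the spread between libraries.

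The 2 shortest mitochondrial complex I genes had the least certain changes. MT-ND3 (chrMT:10059-10404) was at 215, 222 and 299 CPM with shNC and 194, 213 and 203 CPM with shNUF2, a log2 fold change of -0.27 (SE 0.08, adjusted p = 0.00275). The groups did not overlap, but the shNC replicate 3 library was the high one: without it the log2 fold change was -0.11 (adjusted p = 0.0696). MT-ND4L (chrMT:10470-10766) was at 181, 211 and 296 CPM with shNC and 169.9, 164 and 193 CPM with shNUF2, so the groups overlapped (log2 fold change -0.39, SE 0.1, adjusted p = 0.0012). Without shNC replicate 3 it was -0.16 (adjusted p = 0.017). By the DESeq2 Wald test neither gene was called, with adjusted p = 0.144 for MT-ND3 and 0.132 for MT-ND4L.

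MT-CYB (chrMT:14747-15887), cytochrome b and the only mitochondrial subunit of complex III, was at 1461, 1593 and 1428 CPM with shNC and 1094, 1211 and 1248 CPM with shNUF2 (log2 fold change -0.34, SE 0.05, adjusted p = 7.45e-07). The groups did not overlap and the mean was 79.3% of the shNC mean.

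MT-ATP8 and MT-ATP6, the membrane-domain subunits of complex V that the mitochondrial DNA encodes, lie on 1 transcript and share 46 bases in different reading frames. Those bases are shown because a read within them belongs to both genes. They run from the start codon of MT-ATP6 to the stop codon of MT-ATP8, both in capitals, at chrMT:8527-8572 of GRCh38, forward strand.

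MT-ATP8 and MT-ATP6 overlap: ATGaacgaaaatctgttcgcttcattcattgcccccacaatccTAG

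This stretch is 22.2% of the bases of MT-ATP8 and, with the base shared with MT-CO3, 6.9% of MT-ATP6. MT-ATP8 (chrMT:8366-8572) had 65, 84 and 64 reads under shNC against 42, 38 and 24 under shNUF2, and its log2 fold change was -0.84 (SE 0.26, adjusted p = 0.00579). The groups did not overlap, but without shNUF2 replicate 3, the lowest library, it was -0.58 (adjusted p = 0.0544). MT-ATP6 (chrMT:8527-9207) had 16223, 18851 and 19870 reads under shNC against 9991, 10658 and 12309 under shNUF2 (log2 fold change -0.55, SE 0.04, adjusted p = 1.41e-11). Per length MT-ATP6 was at 1722 ± 37.8 FPKM and MT-ATP8 at 22.1 ± 3.83 FPKM with shNC, although they share a transcript.

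Copies of mitochondrial sequence in the nuclear genome share exact stretches with some of these genes. Of all windows of 100 bases in the transcript, 27.9% of MT-CO1 occurred also in MTCO1P12, 26.1% of MT-ND2 in MTND2P28, 11.9% of MT-ATP6 in MTATP6P1 and 11% of MT-ND1 in MTND1P23. MT-CO3 shared 4.4% and MT-CO2 2.4% of their windows with such copies. The windows were compared with annotated transcripts only, and the part of such copies in the result was not tested.

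Within the mitochondrial genes the summed complex IV reads fell more than the summed complex I reads. Single genes overlapped, with log2 fold changes of -0.58 for MT-ND6 and -0.54 for MT-ND5 beside -0.57 for MT-CO2. The MT-CO reads were 1.77, 1.82 and 1.79 times the MT-ND reads in the shNC libraries and 1.53, 1.54 and 1.49 times in the shNUF2 libraries, with no overlap and a ratio of 0.848 between the means. The ratio of MT-CO3 to MT-ND4 reads, chosen after the values were seen, went from 0.761 ± 0.0162 to 0.565 ± 0.0122. The ratio of MT-CO3 to MT-CO1 reads was 0.280 ± 0.00473 and 0.262 ± 0.0123.

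**Figure D2:**
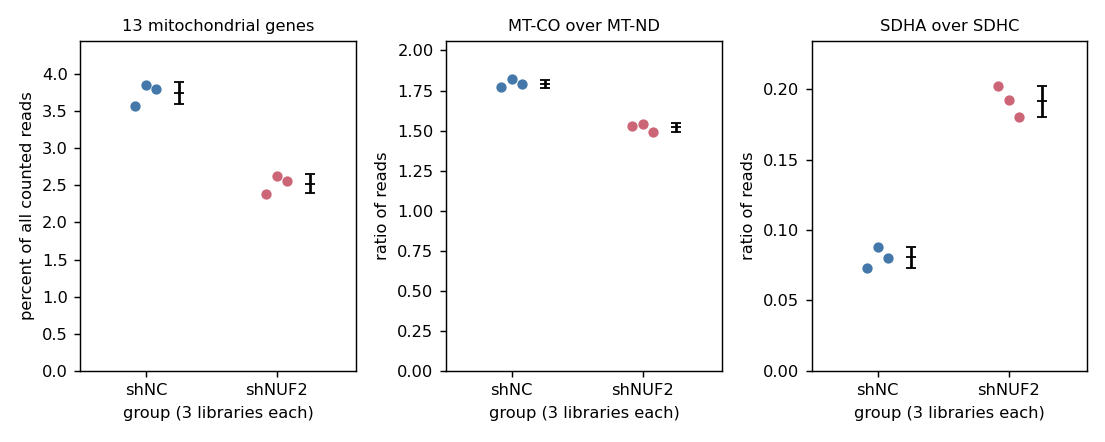
Left, the 13 mitochondrially encoded genes as a percent of all counted reads. Middle, the ratio of MT-CO to MT-ND reads. Right, the ratio of SDHA to SDHC reads. Each point is 1 library, and the bars show the mean and SD of the 3 libraries of a group. The 3 shNUF2 libraries lay at 2.38% to 2.63% in the left panel and at 1.49 to 1.54 in the middle panel, below all shNC libraries in both, and above them in the right panel, at 0.180 to 0.202.

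The nuclear-encoded subunits did not move together. Of the 81 tested, 36 were lower (44.4%), 10 were higher (12.3%) and 35 were not called, beside 33.8% and 33.9% of all genes. Their median log2 fold change was -0.15 and the range ran from -0.85 to 1.05. In 37 every shNUF2 library was below every shNC library (35.4% of all genes), and in 9 every one was above (35.2%). The summed nuclear subunits were 0.680% ± 0.0214 of counted reads with shNC and 0.564% ± 0.014 with shNUF2, a ratio of 0.829. The study's methods give a fold change above 1 or below -1 and p under 0.05. Read as log2 fold changes, which is an assumption, only NDUFB8 passed as higher (9.41% of all genes) and none of the 94 members passed as lower (4.16% of all genes).

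The median log2 fold change of the mitochondrial genes was lower than that of the nuclear subunits by 0.39 on the log2 scale (contrast -0.39). The contrast within a complex was -0.26 for complex I (medians -0.39 and -0.13), -0.08 for complex III (-0.34 and -0.26), -0.54 for complex IV (-0.62 and -0.08) and -0.54 for complex V (-0.69 and -0.15). These are differences of medians over genes that share the same libraries, and no test was made of them. The complex III value rests on 1 mitochondrial gene. The complex V value rests on 2, MT-ATP6 (-0.55) and MT-ATP8 (-0.84, SE 0.26), of which MT-ATP8 had only 24 to 84 reads per library. Set against the shNC mean, the median of the mitochondrial minus that of the nuclear genes was -0.34, -0.40 and -0.35 in the shNUF2 libraries. It was between -0.03 and 0.05 in the shNC libraries, which centre on 0 because they are set against their own mean. The 3 shNUF2 libraries lay outside the spread of the shNC libraries. The ratio of mitochondrial to nuclear subunit reads was 5.39, 5.72 and 5.40 with shNC and 4.34, 4.56 and 4.54 with shNUF2. Per length, the summed FPKM ratio went from 41.6 ± 2.33 to 29.2 ± 1.24 in complex IV and from 9.79 ± 0.296 to 7.55 ± 0.212 in complex I. In complex V it went from 2.06 ± 0.0603 to 1.87 ± 0.0608. In complex III it was 2.74 ± 0.246 and 2.65 ± 0.147, which differed by less than the spread between libraries.

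**Figure D3:**
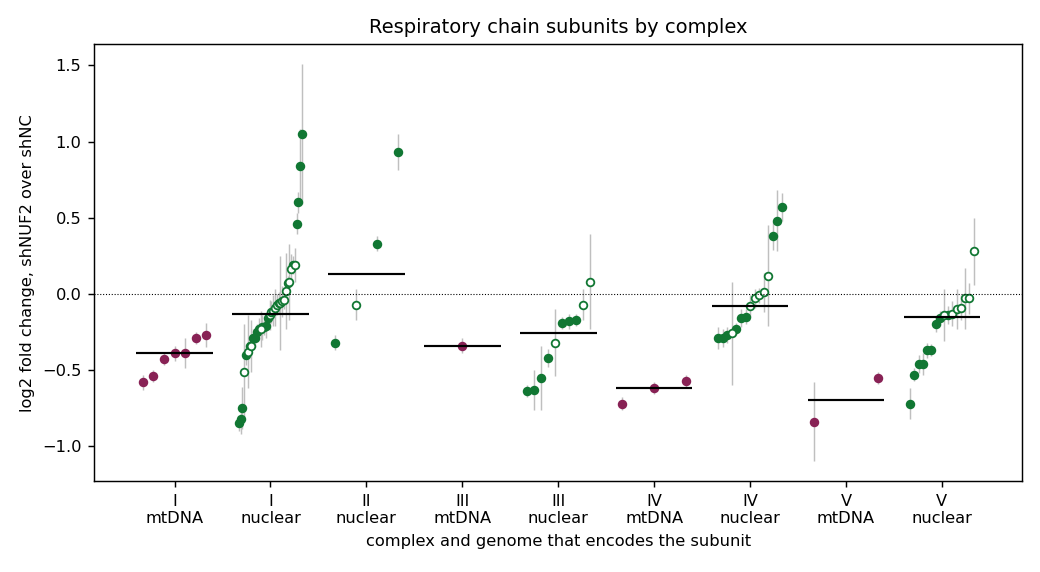
Log2 fold change (shNUF2 over shNC) of each respiratory chain gene tested, by complex and by the genome that encodes it. Filled points passed an adjusted p of 0.05, open points did not, vertical lines show 1 SE and horizontal bars the group median. All mitochondrial points lay below 0, while nuclear complex I ran from -0.85 to 1.05 and complex II had a median of 0.13.

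In complex I, 13 of the 36 nuclear subunits tested were lower, 5 were higher and 18 were not called, with a median log2 fold change of -0.13. The NDUFS and NDUFV subunits, most of which form the NADH-oxidising arm with its iron-sulphur chain, were lower in 6 and higher in 2 of 11, the NDUFB subunits of the membrane arm were lower in 4 and higher in 2 of 11, and the NDUFA subunits were lower in 3 and higher in 1 of 12. The 2 NDUFC subunits tested were not called. NDUFS1 (chr2:206114817-206159509), the large iron-sulphur subunit, fell the most. It was at 157, 159 and 153 CPM with shNC and 85.5, 87.8 and 87.2 CPM with shNUF2 (log2 fold change -0.85, SE 0.05, adjusted p = 1.11e-14), so each group was tight and they lay far apart. NDUFV3, an accessory subunit of the NADH-oxidising arm, had 457, 491 and 618 reads under shNC against 251, 268 and 253 under shNUF2 (log2 fold change -0.82). NDUFB1, an accessory subunit of the membrane arm, went from 13.1 ± 0.841 to 7.78 ± 1.05 CPM (log2 fold change -0.75). The catalytic NDUFV1, which binds the flavin, was lower by a smaller amount, from 173 ± 0.571 to 148 ± 7.83 CPM (log2 fold change -0.22, adjusted p = 1.56e-04).

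Some complex I calls near the threshold changed with the library left out or the tool. NDUFA10 was lower (-0.21, adjusted p = 0.025), but not by the DESeq2 Wald test (adjusted p = 0.057) or by limma on log2(FPKM + 1) or log2(FPKM + 0.1) (adjusted p = 0.0798 and 0.0967), nor without shNC replicate 2 (-0.19, adjusted p = 0.0811), shNC replicate 3 (-0.19, adjusted p = 0.0693) or shNUF2 replicate 3 (-0.15, adjusted p = 0.153). NDUFS4 lost its call (-0.22, adjusted p = 0.0106) without shNC replicate 3 (-0.19, adjusted p = 0.0533), and NDUFB7 (-0.23, adjusted p = 0.00671) without shNUF2 replicate 1 (-0.17, adjusted p = 0.0534). NDUFA1 was not called over all libraries (0.16, adjusted p = 0.13), but was higher without shNC replicate 3 (0.32, adjusted p = 0.00141) or shNUF2 replicate 2 (0.24, adjusted p = 0.0439). NDUFB4 (-0.12, adjusted p = 0.118) was called lower without shNC replicate 1 (-0.19, adjusted p = 0.0111), with library totals only (adjusted p = 0.0427) and with no filter on low counts (adjusted p = 0.0247). NDUFB2 (-0.23, adjusted p = 0.0947) was called lower without shNUF2 replicate 3 (-0.39, adjusted p = 0.00886) and with no filter (adjusted p = 0.0408). NDUFA2 had 95, 124 and 119 reads under shNC against 82, 73 and 79 under shNUF2 and was not called (-0.34, adjusted p = 0.0826), but was by limma on log2(FPKM + 0.1) (-0.36, adjusted p = 0.00523) and log2(FPKM + 1) (-0.30, adjusted p = 0.00561).

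The complex I subunits that rose included NDUFB10 and NDUFA8, accessory subunits of the membrane arm, and NDUFS5. NDUFB10 had 532, 619 and 764 reads under shNC against 806, 810 and 915 under shNUF2 (log2 fold change 0.60, SE 0.07, adjusted p = 2.22e-08), with no overlap. NDUFA8 went from 39.6 ± 3.01 to 54.4 ± 0.519 CPM (log2 fold change 0.46). NDUFS5 was higher by only 0.19 on the log2 scale (adjusted p = 0.00733), and its groups overlapped. Its call was lost without shNC replicate 2 (0.15, adjusted p = 0.0563) and without shNUF2 replicate 2 (0.14, adjusted p = 0.0655), and also by limma on log2(FPKM + 0.1) and log2(FPKM + 1) (adjusted p = 0.0825 and 0.0845). NDUFS7, which holds the last iron-sulphur cluster before ubiquinone, had 33, 35 and 45 reads under shNC against 64, 46 and 67 under shNUF2 (log2 fold change 0.84, SE 0.24, adjusted p = 0.00342). The largest value, that of NDUFB8, rests on 9, 5 and 10 reads under shNC against 19, 10 and 15 under shNUF2 (log2 fold change 1.05, SE 0.46, adjusted p = 0.0458). It lost its call in 9 of the alternative fits, with adjusted p from 0.0559 to 0.202 when any library but shNUF2 replicate 2 was left out, and 52.2% of its 100-base windows occur also in the overlapping gene AL133352.1.

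Complex II, whose 4 subunits are all nuclear, had the only positive median, 0.13. SDHA (chr5:218241-257082), the flavoprotein that oxidises succinate, was at 9.07, 10.8 and 9.65 CPM with shNC and 19.7, 18.7 and 17.8 CPM with shNUF2. This was a log2 fold change of 0.93 (SE 0.12, adjusted p = 9.86e-08), with no overlap. SDHB (chr1:17018722-17054032), the iron-sulphur subunit, was at 86.5, 86.1 and 88.0 CPM with shNC and 107, 108 and 113 CPM with shNUF2 (log2 fold change 0.33, SE 0.05, adjusted p = 1.45e-06). The membrane anchor SDHC (chr1:161314381-161363206) went the other way, from 124, 122 and 120.0 CPM to 97.7, 97.4 and 99.1 CPM (log2 fold change -0.32, SE 0.05, adjusted p = 1.40e-06). The other anchor, SDHD (chr11:112086824-112120016), was at 26.0 ± 2.36 and 24.8 ± 3.52 CPM and was not called (log2 fold change -0.07, adjusted p = 0.575). Thus the catalytic subunits were higher and 1 anchor was lower, and SDHA reads were 0.0731, 0.0879 and 0.0804 of the SDHC reads with shNC and 0.202, 0.192 and 0.180 with shNUF2. Per length SDHA was far below its partners, at 1.14 ± 0.105 FPKM against 37.8 ± 0.433 for SDHB and 65.0 ± 1.03 for SDHC with shNC. The deposited length of SDHC is 1902 bases, while its GENCODE exons cover 14160 bases, so the size of that gap depends on the gene model. SDHA has near-identical pseudogene copies, and the exact 100-base windows it shares with SDHAP3 are 2.4% of its transcript, so its level is uncertain.

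The promoters of SDHA, SDHB and SDHD of complex II and of the falling subunits NDUFS1 and UQCRQ are shown because nuclear respiratory genes are known for shared binding motifs of NRF1, GABPA and YY1. Each stretch is the 150 bases before the start of the gene in the deposited table or in RefSeq, whichever lies further upstream, on the strand of the gene, from RefSeq (GRCh38.p14), with the motifs searched in capitals: GCGCANGCG for NRF1, CCGGAAG for GABPA and other ETS factors, and AAGATGGCG for YY1, on both strands. The places are chr5:218091-218240 (forward) for SDHA, chr1:17054033-17054182 (reverse) for SDHB, chr11:112086674-112086823 (forward) for SDHD, chr2:206159510-206159659 (reverse) for NDUFS1 and chr5:132866480-132866629 (forward) for UQCRQ.

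SDHA: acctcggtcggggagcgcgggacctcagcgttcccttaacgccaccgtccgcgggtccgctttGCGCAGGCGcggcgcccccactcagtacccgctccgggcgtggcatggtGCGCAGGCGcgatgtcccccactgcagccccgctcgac
SDHB: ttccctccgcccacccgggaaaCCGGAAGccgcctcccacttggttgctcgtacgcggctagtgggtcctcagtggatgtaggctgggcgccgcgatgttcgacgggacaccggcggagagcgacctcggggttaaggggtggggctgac
SDHD: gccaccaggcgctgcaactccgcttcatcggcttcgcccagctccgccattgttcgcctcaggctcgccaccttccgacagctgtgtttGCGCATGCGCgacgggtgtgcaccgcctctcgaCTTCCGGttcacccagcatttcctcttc
NDUFS1: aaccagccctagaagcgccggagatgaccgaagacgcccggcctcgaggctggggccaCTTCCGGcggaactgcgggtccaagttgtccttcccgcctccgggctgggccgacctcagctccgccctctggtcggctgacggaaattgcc
UQCRQ: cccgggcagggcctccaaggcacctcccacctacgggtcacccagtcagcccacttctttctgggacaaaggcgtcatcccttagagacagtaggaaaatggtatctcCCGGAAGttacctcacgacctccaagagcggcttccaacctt

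The SDHA stretch, of a gene that was higher, holds 2 NRF1 motifs, and that of SDHD, which was not called, holds an NRF1 motif read on both strands and an ETS motif. SDHB, higher, and NDUFS1 and UQCRQ, lower, each hold an ETS motif. Promoters of 300 bases, 250 before and 50 after the start, were given for 68 of the 90 nuclear subunits. Of these, 32.4% held the NRF1 motif, 27.9% the ETS motif and 11.8% the YY1 motif, against 14.6%, 19.0% and 3.88% of the 10297 promoters of genes tested and 8.05%, 10.7% and 1.85% of all 27305 promoters. Any of the 3 motifs was found in 57.4% of the subunits' promoters, 32.7% of those of genes tested and 18.3% of all. Divided by the call, the NRF1 motif was in 16.7% of the 30 promoters of subunits that were lower, in 37.5% of the 8 that were higher and in 48.0% of the 25 not called. The ETS motif was in 33.3%, 12.5% and 28.0%, and the YY1 motif in 10%, 25% and 8%. The groups are small, no test was made of these shares, and a match of letters does not show binding.

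In complex III, 7 of the 10 nuclear subunits were lower (70.0%) and none was higher, beside 33.8% and 33.9% of all genes. The other 3 were not called, and the median was -0.26. Cytochrome c1 (CYC1), which hands electrons to cytochrome c, was at 197, 198 and 199 CPM with shNC and 128, 124 and 129 CPM with shNUF2 (log2 fold change -0.64, SE 0.04, adjusted p = 1.27e-12). The spread within each group was a few CPM. UQCRQ, a small membrane subunit, had 189, 196 and 249 reads under shNC against 113, 106 and 141 under shNUF2 (log2 fold change -0.63, SE 0.13, adjusted p = 1.53e-04). The Rieske iron-sulphur protein UQCRFS1 was lower by a log2 fold change of -0.42 and UQCR11 by -0.55, while the core proteins UQCRC1 and UQCRC2 were lower by -0.19 and -0.17 and the hinge protein UQCRH by -0.18 (-0.12 without shNC replicate 3). UQCR11 lost its call without shNC replicate 2 (-0.53, adjusted p = 0.0526) and without shNUF2 replicate 3 (-0.44, adjusted p = 0.0954). UQCRB (-0.07, adjusted p = 0.515), UQCR10 (0.08, adjusted p = 0.829) and UQCRHL (-0.32, adjusted p = 0.201) were not called, though UQCRHL was without shNUF2 replicate 3 (-0.63, adjusted p = 0.0261).

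In complex IV, 6 of the 15 nuclear subunits tested were lower, 3 were higher and 6 were not called, with a median of -0.08, beside -0.62 for the 3 mitochondrial core subunits. COX6B1, on the intermembrane side, was at 65.1, 68.9 and 83.5 CPM with shNC and 58.0, 62.1 and 58.6 CPM with shNUF2 (log2 fold change -0.29, SE 0.07, adjusted p = 9.90e-04), and without shNC replicate 3 it was -0.18 (adjusted p = 0.0242). COX5A went from 68.9 ± 3.4 to 56.6 ± 3.06 CPM (log2 fold change -0.29), and COX4I1, the usual isoform of subunit 4, from 325 ± 4.41 to 277 ± 5.7 CPM (log2 fold change -0.23). The supercomplex factor COX7A2L was lower by -0.27, COX5B by -0.15 and COX7A2 by -0.16. COX7A2 lost its call by the DESeq2 Wald test (adjusted p = 0.0684), without shNC replicate 3 (adjusted p = 0.12) and without shNUF2 replicate 3 (adjusted p = 0.165). COX7C (-0.08, adjusted p = 0.277) was called only without shNC replicate 2 (-0.16, adjusted p = 0.0452) among the fits that left out a library.

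The 3 complex IV subunits that were higher are the less usual isoforms of their pairs, as the plot of paired isoforms shows. COX6B2, known as the testis form of COX6B1, was at 30.4, 25.5 and 32.0 CPM with shNC and 44.1, 46.9 and 40 CPM with shNUF2 (log2 fold change 0.57, SE 0.09, adjusted p = 1.79e-06), with no overlap. The ratio of COX6B2 to COX6B1 reads went from 0.407 ± 0.0527 to 0.732 ± 0.0446. Of the exon bases of COX6B2, 30.9% lie in AC020922.1 on the same strand, so its reads are not all assigned with certainty. NDUFA4L2, the hypoxia-inducible relative of NDUFA4, was at 55.3, 37.8 and 47.6 CPM with shNC and 63.9, 56.2 and 62.6 CPM with shNUF2 (log2 fold change 0.38, SE 0.09, adjusted p = 4.59e-04), and without shNC replicate 2, its lowest library, it was 0.25 (adjusted p = 0.00799). NDUFA4 itself was at 107 ± 3.21 and 106 ± 5.61 CPM and was not called. COX7B2, the testis form of COX7B, had 48, 60 and 85 reads under shNC against 82, 64 and 89 under shNUF2. Its groups overlapped and its call (log2 fold change 0.48, SE 0.2, adjusted p = 0.0391) was lost in 6 of the alternative fits, among them each of those without shNC replicate 1 (0.37, adjusted p = 0.144), without shNC replicate 2 (0.43, 0.109), without shNUF2 replicate 1 (0.42, 0.112) and without shNUF2 replicate 3 (0.44, 0.103). COX7B was not called (-0.03, adjusted p = 0.669). COX4I2 and COX8C had no read in any library, COX6A2 at most 3 and COX7A1 at most 10, while COX6A1 (0.12, adjusted p = 0.756) and COX8A (-0.26, adjusted p = 0.503) had 17 to 39 reads.

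**Figure D4:**
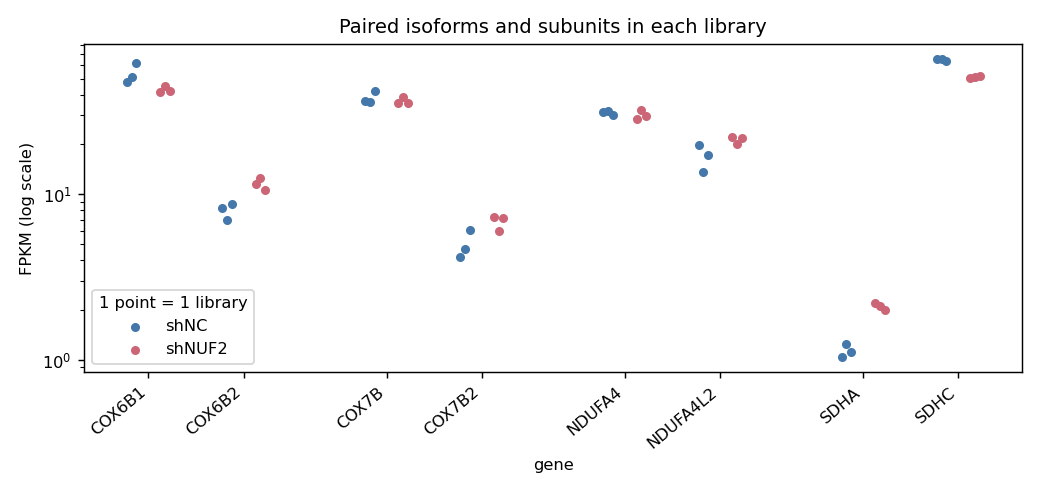
FPKM (log scale) of 3 pairs of complex IV isoforms and of the complex II subunits SDHA and SDHC in each library, 1 point per library. COX6B2 and SDHA lay higher in every shNUF2 library than in any shNC library, SDHC lay lower, and NDUFA4 and COX7B overlapped between the groups.

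In complex V, 9 of the 16 nuclear subunits tested were lower (56.2%) and none was higher, beside 33.8% and 33.9% of all genes. The other 7 were not called, and the median was -0.15. In the F1 part, the catalytic head with its central stalk, 4 of the 5 ATP5F1 genes were lower. ATP5F1B (chr12:56638175-56645984), the catalytic beta subunit, which at 495 ± 3.47 FPKM with shNC was the highest nuclear member per length, was at 1094, 1097 and 1090.2 CPM with shNC and 736, 768 and 767 CPM with shNUF2 (log2 fold change -0.53, SE 0.04, adjusted p = 3.79e-12). ATP5F1A, the alpha subunit, and ATP5F1C, the gamma subunit of the stalk, were both lower by -0.37. ATP5F1D, the delta subunit, had 663, 755 and 1069 reads under shNC against 453, 439 and 417 under shNUF2, so the shNC spread was wide, yet the groups lay apart (log2 fold change -0.72, SE 0.1, adjusted p = 2.44e-07). ATP5F1E was not called (-0.13, adjusted p = 0.139), though it was without shNC replicate 1 (-0.20, adjusted p = 0.0149) or shNC replicate 2 (-0.22, adjusted p = 0.0184), and with no filter on low counts (-0.16, adjusted p = 0.0042). In the peripheral stalk ATP5PD (-0.46) and ATP5PB (-0.16) were lower, and ATP5PF (-0.10, adjusted p = 0.519) and ATP5PO (0.28, adjusted p = 0.254) were not called. The 3 genes for the c subunit of the rotor ring, ATP5MC1, ATP5MC2 and ATP5MC3, were lower by -0.46, -0.20 and -0.14. The call of ATP5MC3 was lost without shNC replicate 1 (-0.12), shNC replicate 2 (-0.15), shNUF2 replicate 1 (-0.10) or shNUF2 replicate 3 (-0.15), with adjusted p from 0.0537 to 0.159, and with all libraries kept by the DESeq2 Wald test (adjusted p = 0.0878) and where every library had to reach 1 CPM (adjusted p = 0.0713). None of the other 4 membrane subunits tested was called, ATP5MD being at -0.03 (adjusted p = 0.829).

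Read depth and overlapping genes differed between the called and the uncalled subunits. The 65 nuclear subunits with a mean of at least 100 reads held 35 of the lower and 7 of the higher calls, with a median of -0.16. The 25 with fewer reads had 16 tested, 1 of them lower and 3 higher, with a median of -0.01. Of these 25, 14 had over 5% of their exon bases in another gene on the same strand, against 8 of the 65. These 22 were NDUFA7, NDUFA9, NDUFA11, NDUFA13, NDUFB8, NDUFC1, NDUFC2, NDUFC2-KCTD14, NDUFS3, NDUFV1, NDUFV2, SDHD, UQCR11, COX6A1, COX6B2, COX8A, ATP5MC2, ATP5MD, ATP5MF, ATP5MF-PTCD1, ATP5MG and ATP5PO. Of the 19 tested, 4 were lower, 2 were higher and 13 were not called. NDUFS3, which shares 37.2% of its windows with PTPMT1, was lower by -0.16 (adjusted p = 0.00982), and by -0.12 (adjusted p = 0.074) without shNUF2 replicate 3. The part of overlapping genes in these low counts was not tested. Among the 62 tested subunits with at most 5% of such bases, 32 were lower (51.6%) and 8 were higher (12.9%). Of all genes tested, 33.8% were lower and 33.9% higher.

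The nuclear genes that serve the respiratory chain without being subunits were counted in lists of their own. All of these lists had a negative median. Of 18 complex I assembly factors, 12 were lower and none was higher (33.8% and 33.9% of all genes), with a median of -0.37, led by NDUFAF8 (18.1 ± 4.55 to 9.82 ± 2.4 CPM, log2 fold change -0.90) and NDUFAF4 (-0.70). Of 22 complex IV assembly factors tested, 13 were lower and 1 was higher, with a median of -0.43. The lowest were COX18 (-0.93), which inserts MT-CO2 into the membrane, and TACO1 (-0.85), a translational activator of MT-CO1. In complex III, 4 of 6 were lower and 1 higher (median -0.51), with UQCC2 at -0.60 and BCS1L, which inserts the Rieske protein, at -0.57. In complex V, 4 of 5 were lower (median -0.60), with DMAC2L at -1.16 and ATP5IF1, the inhibitor of the ATPase, at -0.66. In complex II, 1 of 4 was called, SDHAF4, which binds the flavoprotein SDHA, at 7.79 ± 1.05 and 3.78 ± 0.612 CPM (log2 fold change -1.04), opposite in sign to SDHA.

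Genes that copy, transcribe and process the mitochondrial DNA were lower in 19 (61.3%) and higher in 2 (6.45%) of 31, with a median of -0.20. Of all genes tested, 33.8% were lower and 33.9% higher. MTRES1, a mitochondrial RNA-binding protein, was at -0.95 and FASTKD5, an RNA processing protein, at 0.75. The following were chosen after their values were seen, because they act directly on mitochondrial transcripts or because their motifs were searched. TFAM, which packages mitochondrial DNA and starts its transcription, went from 150.2 ± 4.62 to 94.8 ± 3.37 CPM (log2 fold change -0.66, SE 0.05, adjusted p = 3.25e-12). The mitochondrial RNA polymerase POLRMT was lower by -0.20 and LRPPRC, which stabilises mitochondrial mRNA, by -0.38, while its partner SLIRP was not called (0.05, adjusted p = 0.725). NRF1 was not called (-0.06, adjusted p = 0.572), and GABPA was lower (-0.40, adjusted p = 1.56e-05). Of the 31 genes listed, 10 were not called, so the fall was not shared by all. Among these were TFB1M (0.19, adjusted p = 0.181), TFB2M (-0.07, adjusted p = 0.326), TEFM (-0.10, adjusted p = 0.549) and TRMT10C (0.07, adjusted p = 0.433). POLG was higher (0.51, adjusted p = 6.91e-10). They are given here from the main fit only.

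The shares of the next lists stand beside 33.8% lower and 33.9% higher of all genes tested. Mitochondrial ribosomal proteins, which translate the 13 mRNAs, were lower in 41 (51.9%) and higher in 9 (11.4%) of 79, with a median of -0.23. MRPL19 had 1056, 1228 and 1226 reads under shNC against 180, 156 and 187 under shNUF2 (log2 fold change -2.56, SE 0.08, adjusted p = 3.70e-20), far below the rest of its list, and MRPS16 was at -0.98. Regulators of mitochondrial biogenesis were lower in 6 (42.9%) and higher in 1 (7.14%) of 14 (median -0.16). TFEB was at -1.11 and the coactivator PPARGC1A at -0.93. Electron carriers, enzymes that feed ubiquinone and genes of ubiquinone synthesis (COQ and PDSS) formed 1 list. It was lower in 13 (54.2%) and higher in 3 (12.5%) of 24 (median -0.35). Choline dehydrogenase (CHDH) was at -2.04 and proline dehydrogenase (PRODH, 3 to 33 reads) at 1.80. Adenine nucleotide and phosphate carriers, listed with uncoupling proteins and the outer-membrane porins (VDAC), were lower in 5 (55.6%) and higher in 2 (22.2%) of 9 (median -0.24). UCP2 was at -0.75 and SLC25A4 at 0.59. Tricarboxylic acid cycle enzymes were lower in 9 and higher in 2 of 18 (median -0.14), with OGDH, of the 2-oxoglutarate dehydrogenase complex, at -0.99 and IDH2, the mitochondrial NADP-dependent isocitrate dehydrogenase, at 1.15.

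**Figure D5:**
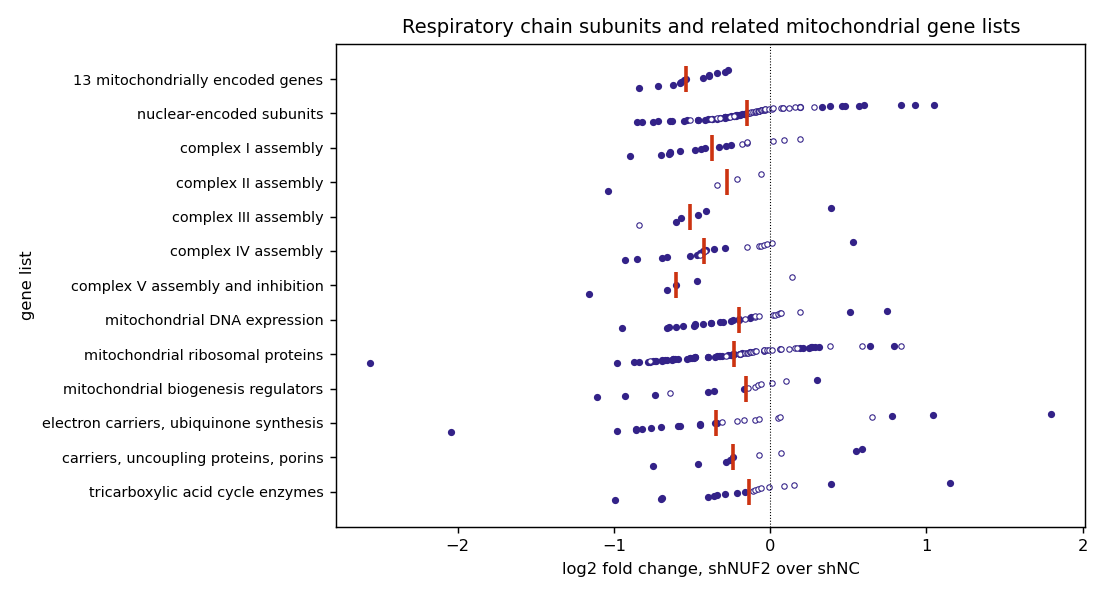
Log2 fold change (shNUF2 over shNC) of the tested genes of each list, 1 point per gene. Filled points passed an adjusted p of 0.05, open points did not, and the vertical bar is the median of the list. The median was -0.54 for the mitochondrially encoded genes and -0.15 for the nuclear-encoded subunits, and the other medians ran from -0.14 to -0.60.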

How the data were processed

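Raw read counts per gene and FPKM values were deposited by the authors in 1 table. Its gene coordinates are those of GRCh38.p13, and the submitters' processing notes name cutadapt, HISAT and HTSeq, with versions and counting options not given in the sources used here. The deposited FPKM followed from the counts, gene lengths and library totals (largest relative deviation 2.71e-07). Counts were fitted as deposited in edgeR 4.0.16 (R 4.3.3; filterByExpr, TMM scaling, quasi-likelihood test, Benjamini-Hochberg adjustment over all 12874 genes tested), shNUF2 against shNC, 3 libraries each, without covariates. CPM values used the same scaling. Levels of different genes are compared in FPKM. Ratios of reads between genes are not scaled to gene length and serve only to compare the groups. The fit was tested on simulated data. DESeq2 1.42.0, limma 3.58.1 on log2 FPKM with pseudocounts of 1 and 0.1, other scalings and filters, a replicate block and leaving out each library were alternatives. Leaving out members with a mean under 100 reads, or with over 5% of exon bases in another gene, was added after seeing the data. Groups of 3 are below the size of 4 needed to look for outlying samples.

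Genes named were NUF2, all mitochondrial genes, the 2 highest and 2 lowest nuclear subunits of each complex, members past the study's thresholds read on the log2 scale, fixed isoform sets, members sharing reads with overlapping genes, and the 2 largest called changes of each related list. Other subunits were named after their values were seen, to account for the calls of their complex. NDUFA4, NDUFA4L2 and COX7A2L were counted with complex IV. Members and lists were chosen with earlier results of these data known. Shared windows and exon overlaps were computed from GENCODE transcripts of GRCh38 and promoters were taken from RefSeq GRCh38.p14. Of the 103 members, 48 had the same start and end in GENCODE as in the deposited table, among them all 13 mitochondrial genes. For the others the overlaps may describe gene models unlike those counted.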

Additional observations from a re-analysis of the deposited data

How the results depend on the processing

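No called gene among the 106 named changed sign in any alternative, and no count of calls moved by more than 1.5 times. The number of nuclear subunits called lower ran from 32 (members with at most 5% of exon bases in another gene) to 39 over the alternatives, and the number called higher from 7 (members with a mean of at least 100 reads, and without shNC replicate 2) to 10, and the mitochondrial genes called lower were 11 by the DESeq2 Wald test, 12 without shNC replicate 3, 12 without shNUF2 replicate 3 and 13 in the other fits over all members. The median log2 fold change of the mitochondrial genes moved from -0.54 to -0.58 with library totals only and with limma on log2 FPKM at either pseudocount, to -0.49 over members with a mean of at least 100 reads, to -0.43 over members with at most 5% of exon bases in another gene, and to between -0.57 and -0.50 when each library was left out. The mitochondrial minus nuclear median moved from -0.39 to -0.33 and -0.26 over those same members, and to between -0.42 and -0.35 with libraries left out. Of 1694 comparisons over 106 named genes and 16 settings, 1608 kept their direction and side of the threshold, 43 (13 genes) lost the call, 14 (7 genes) gained one and 29 (16 genes, none called) changed sign. The last were NDUFA4 at 0.01 where all libraries had to reach 1 CPM, NDUFA11 at -0.02 with library totals only, -0.00 with limma on log2(FPKM + 1) and -0.01 without a filter and, with libraries left out, ATP5F1E (-0.22 to 0.04), ATP5MD (-0.13 to 0.11), ATP5MF (-0.18 to 0.07), ATP5PF (-0.22 to 0.08), COX6A1 (-0.08 to 0.34), COX7B (-0.07 to 0.04), COX7C (-0.16 to 0.04), NDUFA4 (-0.05 to 0.02), NDUFA11 (-0.16 to 0.15), NDUFA13 (-0.32 to 0.32), NDUFV2 (-0.11 to 0.27), NRF1 (-0.12 to 0.02), SDHD (-0.19 to 0.01), SLIRP (-0.08 to 0.21), UQCR10 (-0.04 to 0.30) and UQCRB (-0.14 to 0.06). The cause was not tested. Same-numbered libraries share only a number (correlations of their deviations 0.02, 0.005 and -0.03). With the replicate block 36 nuclear subunits were lower, 9 higher and 13 mitochondrial genes lower, the call of NDUFB8 alone being lost among the members (adjusted p = 0.0645). Genes under 100 reads had wide errors, and a call not made there does not show that the groups were alike.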
